A study of Mus musculus with 51 samples.

Results

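The regions described here are H3K4me1 peaks of late astrocytes (lA) that had no counterpart earlier in differentiation and carried no H3K27ac peak at any stage. They were chosen by overlap of the deposited peak lists: a peak of the lA H3K4me1 list on chromosomes 1 to 19 was taken if it shared no base with an H3K4me1 peak of astroglial-competent neural precursors (aNPC) or early astrocytes (eA), nor with an H3K27ac peak of aNPC, eA or lA. The rule took 50637 of the 203377 lA H3K4me1 peaks on these chromosomes, which is 24.9%. The series followed the differentiation of C57/BL-6 mouse embryonic stem cells in culture. The aNPC grew in EGF and FGF-2, and astrocytes were made by moving them into DMEM with fetal bovine serum, B27 and LIF, where they stayed for 1 day (eA) or 5 days (lA). All 3 stages were cells of the same origin in culture, outside the tissue in which astrocytes mature, without a knockdown in these samples, and 2 biological replicates per stage and mark were immunoprecipitated. The replicates were merged by the authors before peaks were called, so that each stage and mark gave 1 list, no spread between cultures can be given, and the depth behind each list is unknown.

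Monomethylation of lysine 4 on histone H3 (H3K4me1) marks enhancers, the distal elements that control genes from a distance, and the flanks of promoters. It is deposited by the enzymes KMT2C and KMT2D, often where transcription factors have opened the chromatin. Acetylation of lysine 27 (H3K27ac) by histone acetyltransferases is found at enhancers and promoters in use. Elements with H3K4me1 and without H3K27ac are commonly called primed or, together with H3K27me3, poised. H3K27me3 was not measured in the lists used here.

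The 200 bases around the summit of 4 of the regions are shown first, because the transcription factor motifs searched for below are easiest to judge in their context. For each of 4 motifs, the region with the highest −log10 q that held the letters within 100 bp of its summit was taken, with 1 chromosome left out of this choice. The sequences are the + strand of mm9, 5′ to 3′, and the capitals mark the motif, read on either strand.

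TEAD, chr13:36326592-36326791: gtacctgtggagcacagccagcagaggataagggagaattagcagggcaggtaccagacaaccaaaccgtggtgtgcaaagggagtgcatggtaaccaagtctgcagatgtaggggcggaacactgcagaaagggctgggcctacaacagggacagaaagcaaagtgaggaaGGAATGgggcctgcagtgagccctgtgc

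RUNX, chr3:58097957-58098156: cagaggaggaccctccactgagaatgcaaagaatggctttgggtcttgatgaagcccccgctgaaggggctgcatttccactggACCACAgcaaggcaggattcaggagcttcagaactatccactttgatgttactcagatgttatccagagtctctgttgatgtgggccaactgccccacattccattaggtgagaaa

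STAT, chr8:10775764-10775963: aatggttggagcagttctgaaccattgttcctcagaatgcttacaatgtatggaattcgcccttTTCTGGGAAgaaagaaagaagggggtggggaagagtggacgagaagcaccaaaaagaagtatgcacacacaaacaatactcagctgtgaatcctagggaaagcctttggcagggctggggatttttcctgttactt

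AP-1, chr7:26215420-26215619: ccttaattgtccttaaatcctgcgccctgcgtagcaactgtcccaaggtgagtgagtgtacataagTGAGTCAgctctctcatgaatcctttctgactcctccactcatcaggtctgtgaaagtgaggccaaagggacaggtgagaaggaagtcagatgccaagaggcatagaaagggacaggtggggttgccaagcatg

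The TEAD sequence comes from the region with the highest −log10 q of all 50637, in an intron of Fars2, which encodes the mitochondrial phenylalanyl-tRNA synthetase. The letters stood 75 bp from the summit. The RUNX sequence lies between genes, 121 kb upstream of the Tsc22d2 start site, and its capitals are the reverse complement of the searched letters, 13 bp from the summit. The STAT sequence was intergenic and 153 kb from the nearest coding start site, that of 3930402G23Rik. The AP-1 sequence lay 17.6 kb upstream of Cxcl17, which encodes a chemokine of mucosal tissues.

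Most H3K4me1 peaks that were new in lA fell into this class. Of the 203377 lA peaks, 56766 had no H3K4me1 peak of aNPC or eA beneath them. Of these 56766, 4889 (8.61%, 95% Wilson interval 8.38 to 8.85) overlapped an lA H3K27ac peak, and a further 1240 (2.18%) overlapped only an H3K27ac peak of an earlier stage. The other 50637 (89.2%) are the regions described here. The same rule applied to the other stages took 14754 of 150527 aNPC peaks (9.80%) and 16674 of 181227 eA peaks (9.20%). These shares describe what the rule took, and the lA list was the longest. When each H3K4me1 list was reduced to its 150527 peaks of highest −log10 q, 29912 lA-only regions without H3K27ac were left.

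The regions were narrower and scored lower than the rest of the lA list, as a description of peaks chosen by their absence elsewhere. Their width had a median of 290 bp (quartiles 222 and 415) against 539 bp (336 and 851) in the other 152740 lA peaks. Their −log10 q at the summit, the significance the peak caller gave, had a median of 5.71 (quartiles 4.08 and 7.79) against 10.8 (6.48 and 17.6). The fold over local background at the summit had a median of 3.36 and ranged from 1.55 to 11.5. Of all the regions, 39.0% had a −log10 q under 5, and 507 (1.00%) reached 20 or more. When the lA list was ranked by −log10 q, the regions made up 1.15% of the 20338 peaks ranked highest and 49.9% of the 20337 ranked lowest. The edge of the rule was soft: 2391 regions (4.72%) lay within 100 bp of a peak that would have excluded them (median −log10 q 5.24), and 3331 peaks outside the class were overlapped by 100 bp or less (median −log10 q 4.94). At the other end, 33301 regions (65.8%) were over 1 kb and 8186 (16.2%) over 10 kb from every excluding peak.

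The 10 regions with the highest −log10 q were all intronic or intergenic. The region in Fars2, at chr13:36326375-36326918, was 544 bp wide with a −log10 q of 48.1 and a fold of 11.5. The next, at chr15:37049934-37050398, had a −log10 q of 43.8 and lay 113 kb upstream of Grhl2, which encodes a grainyhead transcription factor of epithelia. Another, at chr14:32025590-32026537, had a −log10 q of 43.8 within the Nisch gene, 4.57 kb from the start site of Tnnc1, the gene of slow skeletal and cardiac troponin C. All 3 were over 1 kb from the nearest H3K27ac peak of any stage, at 6.64, 18 and 2.35 kb.

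The other 7 of the 10 highest had a −log10 q from 37.4 to 41.0. One lay at chr1:186835052-186836012, 12.1 kb upstream of the kinase gene Mark1. A further one, at chr5:46905557-46906271, was 657 kb from the nearest coding start site, that of Lcorl, and 300 kb from any H3K27ac peak. Regions at chr3:58097745-58098330 (upstream of Tsc22d2) and chr5:97276795-97277761 (54.9 kb downstream of the start of Anxa3, an annexin gene) were intergenic, as was one at chr17:36233485-36233982, 24.9 kb from RP23-108F2.4. The chr17 region lay 0.566 kb from an H3K27ac peak, the smallest such gap among the 10. Those at chr16:34848570-34849349 and chr9:105770472-105771020 were intronic, in Mylk, which encodes myosin light chain kinase, and in the collagen gene Col6a5. The TEAD letters were present within 100 bp of the summit in 5 of these 10 regions, against 19.4% of all regions and 21.3% of the 507 with a −log10 q of 20 or more.

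The regions were almost all distal. By the position of the peak centre, 47.0% were intergenic, 49.5% intronic and 2.12% exonic, and 701 (1.38%, 95% Wilson interval 1.29 to 1.49) were at a promoter, the stretch that starts 1 kb before and ends 100 bp after a coding start site. At the other lA peaks, the promoter share was 6.56%, so that the regions were 5.17 percentage points lower (95% Newcombe interval of the difference −5.33 to −5.01), with the same sign on 19 of 19 chromosomes. The regions were also below the 4889 lA-only peaks with lA H3K27ac (2.82%, difference −1.44 points, −1.95 to −0.997), the aNPC-only peaks without H3K27ac (2.91%, difference −1.53 points, −1.83 to −1.25) and the eA-only peaks without H3K27ac (1.82%, difference −0.433 points, −0.668 to −0.214). The last difference had the same sign on 13 of 19 chromosomes. With no excluding peak within 1 kb in any class, the differences from the aNPC-only and eA-only peaks were −0.755 points (−1.06 to −0.489) and −0.713 points (−1.01 to −0.457). The rule removed peaks under H3K27ac, which is also found at promoters in use. The other lA peaks and the acetylated lA-only peaks include such peaks. How far the differences from these classes follow from the rule was not tested. All intervals reflect the number of peaks alone, since the peaks of 1 list are no replicates of a stage.

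The median distance to the nearest coding start site was 42.9 kb (95% interval 42.2 to 43.7) in the regions, 27.2 kb (26.9 to 27.6) in the other lA peaks and 42.5 kb (40.1 to 44.5) in the lA-only peaks with H3K27ac. The interval of the regions overlapped that of the acetylated lA-only peaks. It lay above the aNPC-only (36.0 kb, 35.1 to 37.2) and eA-only peaks (32.8 kb, 31.6 to 33.8). The share of lA peaks that belonged to the class was higher at greater distance. It was 6.14% within 1 kb of a start site, 21.0% from 1 to 5 kb, 25.5% from 10 to 50 kb and 36.5% beyond 500 kb, where 1843 of 5049 peaks belonged to it. Along the genome the share was lower at higher gene density. In 1-Mb windows in which no coding gene starts, 35.4% of the lA peaks were in the class (95% Wilson interval 34.3 to 36.5), and in windows with 31 genes or more 15.1% were (14.5 to 15.8).

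**Figure D1:**
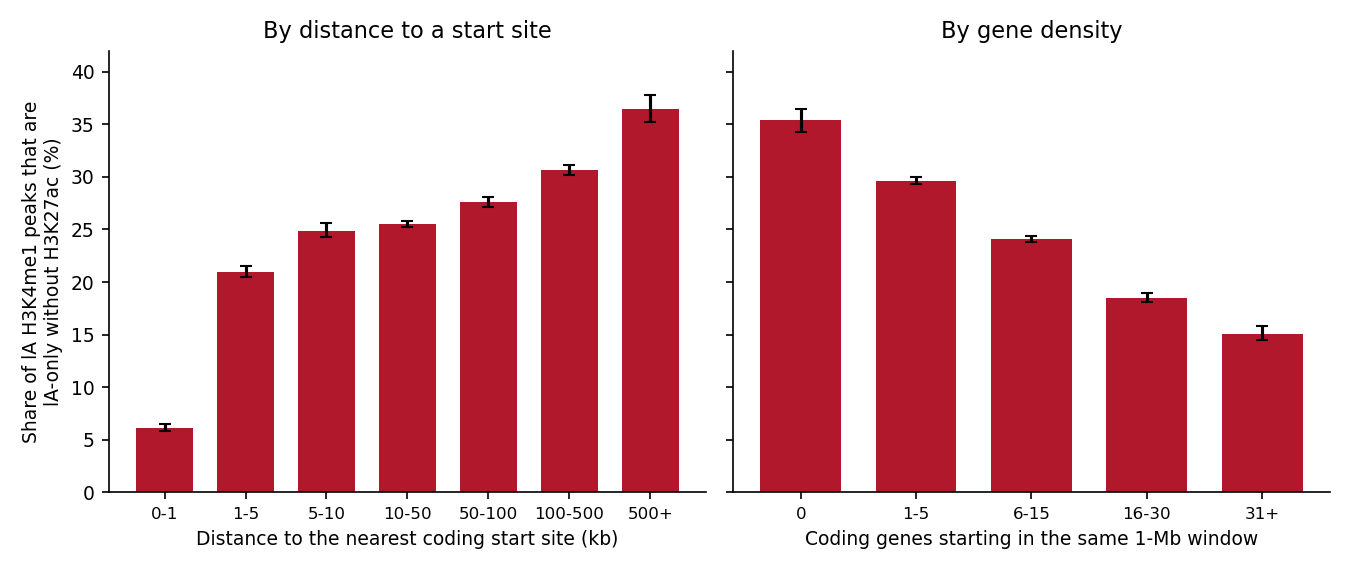
Share of lA H3K4me1 peaks (%) that were lA-only without H3K27ac, by distance of the peak centre to the nearest coding start site in kb (left) and by the number of coding genes that start in the same 1-Mb window (right). Bars are shares over all lA peaks of the bin and error bars are 95% Wilson intervals over peaks. The share climbs from 6.14% within 1 kb to 36.5% beyond 500 kb, and falls from 35.4% in windows without a gene to 15.1% in the densest ones.

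Few regions lay at promoters. The highest −log10 q among the 701 was 23.2, at chr19:57249561-57250317 in the Ablim1 gene, 0.653 kb upstream of a start site of this actin-binding LIM protein gene. It was followed by 22.5 at Cd3g, which encodes a T cell receptor-associated chain, and 20.3 at Sqrdl, the sulfide quinone oxidoreductase gene. These 3 were picked after their values were seen. The promoters of known cell type genes were looked at to describe the cells. In lA, H3K27ac covered the promoter of 8 of 10 astrocyte genes (S100b and Aldh1l1 had none) and 4 of 5 progenitor genes. It covered 1 of 5 neuronal genes, Tubb3, and none of the 4 oligodendrocyte, 4 microglial and 3 pluripotency genes. Of 6 fibroblast and mural genes and 4 endothelial genes, 1 each had an lA H3K27ac peak at its promoter, Acta2 and Kdr. In aNPC the astrocyte count was 7 and the fibroblast and mural and endothelial counts were 0, the neuronal count was 2 in eA, and the other counts in aNPC were as in lA. H3K4me1 peaks were found in lA at the promoters of 8 of 10 astrocyte, 4 of 5 progenitor, 2 of 5 neuronal, 1 of 4 oligodendrocyte, 1 of 4 microglial, 3 of 6 fibroblast and mural, 2 of 4 endothelial and 0 of 3 pluripotency genes. What these promoters have to do with the distal regions was not tested.

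Other peaks were usually close by. The nearest lA H3K4me1 peak outside the class was at a median gap of 3.51 kb (quartiles 0.844 and 8.97), and 27.3% of the regions had one within 1 kb. The nearest H3K4me1 peak of aNPC or eA was at a median of 2.70 kb and the nearest H3K27ac peak of any stage at 5.69 kb. The nearest other region of the class was at a median gap of 7.52 kb, and 23.3% of the regions had one within 1 kb. There were 50637 regions and 152740 lA peaks outside the class, so the longer median gap is not a difference per peak. At shorter range the order was the other way. Within 0.1 kb, 4.90% had another region and 3.02% an lA peak outside the class, and within 0.2 kb 10.1% and 7.75%. The largest gap to another lA peak outside the class was 1381 kb.

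Place and composition varied with the gap to the nearest lA peak outside the class. The gap to other regions of the class was not taken into account in these groups. The 13809 regions within 1 kb of such a peak had a promoter share of 2.25%, a median distance to a start site of 30.1 kb and a mean GC content of 46.5% ± 5.67 (SD over peaks). The 20492 regions over 5 kb from any had a promoter share of 0.815%, a median distance of 62.2 kb and a mean GC content of 45.1% ± 5.27. Their median widths were 272 and 302 bp and their median −log10 q 5.42 and 5.85. The TEAD letters were found in 16.3% of the first and 21.1% of the second group, and the AP-1 letters in 7.19% and 8.49%. These subgroups were formed from the same lists that chose the regions and were not tested.

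**Figure D2:**
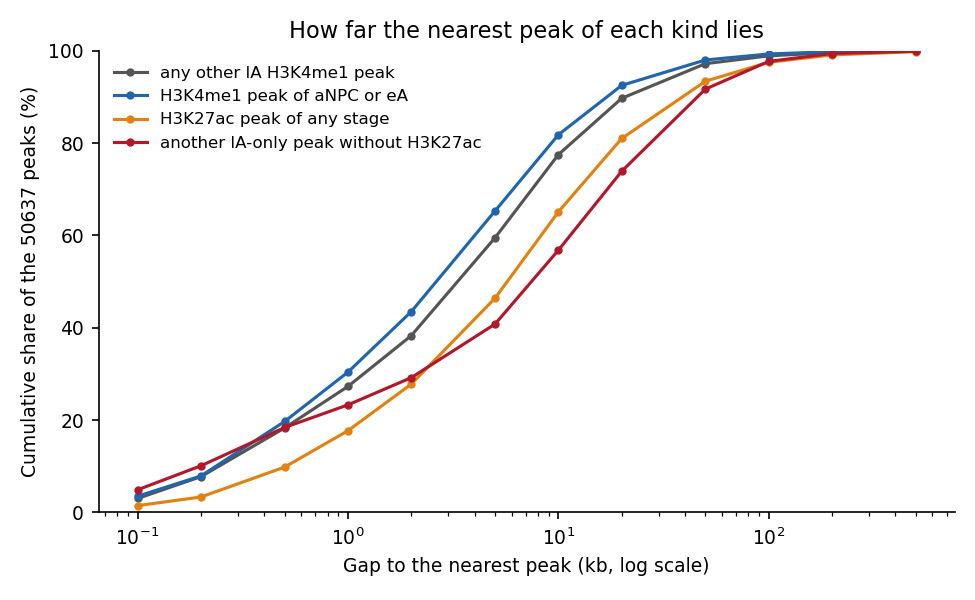
Cumulative share of the 50637 regions (%) by the gap in kb (log scale) to the nearest other lA H3K4me1 peak, H3K4me1 peak of aNPC or eA, H3K27ac peak of any stage, and other region of the class. Each point is the share of regions with such a peak within that gap. Within 1 kb, 30.4% have an earlier H3K4me1 peak and 17.7% an H3K27ac peak.

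H3K27ac that was itself found at 1 stage only lay near a part of the regions. Within 10 kb, 26.6% of them had an H3K27ac peak found in lA only, 20.4% one found in aNPC only and 15.5% one found in eA only. There were 25084, 27939 and 14383 such H3K27ac peaks, so the order of the 3 shares is not an order per peak. For H3K27ac found in lA only, the share was 21.7% in the aNPC-only and 24.0% in the eA-only H3K4me1 peaks without H3K27ac. For H3K27ac found in aNPC only, it was 30.2% in the aNPC-only and 22.6% in the eA-only H3K4me1 peaks. For H3K27ac found in eA only, it was 15.7% in the aNPC-only and 18.7% in the eA-only H3K4me1 peaks. The rule used these same lists, and the shares are a description.

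The 50637 regions were spread over all chromosomes, from 18.2 per Mb on chromosome 17 to 24.0 per Mb on chromosome 18. They were 22.1% of the lA peaks on chromosome 11, which has 13.9 coding genes per Mb, and 27.3% on chromosome 14, which has 7.83. On chromosome X, which the rule left out, 1495 of 4924 lA peaks (30.4%) would have met it. In fixed windows of 100 kb, the mean was 2.11 regions with an SD of 2.29 over 23950 windows, and 31.9% of the windows held none. The 3460 windows with 5 or more regions held 44.3% of them all.

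The fullest windows held up to 17 regions. One, at chr14:12400001-12500000 in the tyrosine phosphatase gene Ptprg, held 17 among its 29 lA peaks. A window at chr11:56300001-56400000 without any coding gene held 17 among 21, and one at chr5:9300001-9400000 with 9330182L06Rik held 17 among 26. The window at chr18:24900001-25000000 in Fhod3, which encodes an actin-organising formin, held 16 among 19. A window at chr4:57800001-57900000, over AF064781 and Akap2, a kinase anchoring gene, held 15 among 26. Windows over Ptprk, over Fzd3 with Fbxo16, and over Gnaq tied with it at 15.

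Base composition, which the rule did not use, set the regions apart. The mean GC content of the 200 bp around the summit was 46.0% ± 5.49 (SD over 50637 peaks) in the regions and 48.9% ± 6.39 in the other lA peaks. The difference was −2.91 percentage points (95% interval −2.97 to −2.85), with the same sign on 19 of 19 chromosomes. Against the aNPC-only peaks without H3K27ac (48.3%) it was −2.33 points (−2.44 to −2.22) and against the eA-only peaks (48.2%) −2.24 points (−2.34 to −2.13). The lA-only peaks with H3K27ac were nearest in composition, at 46.6%, with a difference of −0.611 points (−0.774 to −0.447).

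The lower GC content was also seen away from promoters and at every gene density. With every peak within 2.5 kb of a coding start site left out, the difference from the other lA peaks was −2.58 points. In 1-Mb windows without a gene, the regions had a mean GC content of 42.9% and the other lA peaks 44.7%, and in windows with 31 genes or more the values were 49.2% and 52.3%. Among peaks with a −log10 q from 5 to 10 the difference was −2.09 points. CpG dinucleotides were scarce in the regions: a window held 1.76 on average against 2.75 in the other lA peaks, and 24.0% against 15.2% of the windows held none. The lA-only peaks with H3K27ac were alike in this, with 1.81 per window and 25.9% of windows without any. Windows with both a GC content over 50% and an observed to expected CpG ratio over 0.6 were 0.415% and 2.86%.

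**Figure D3:**
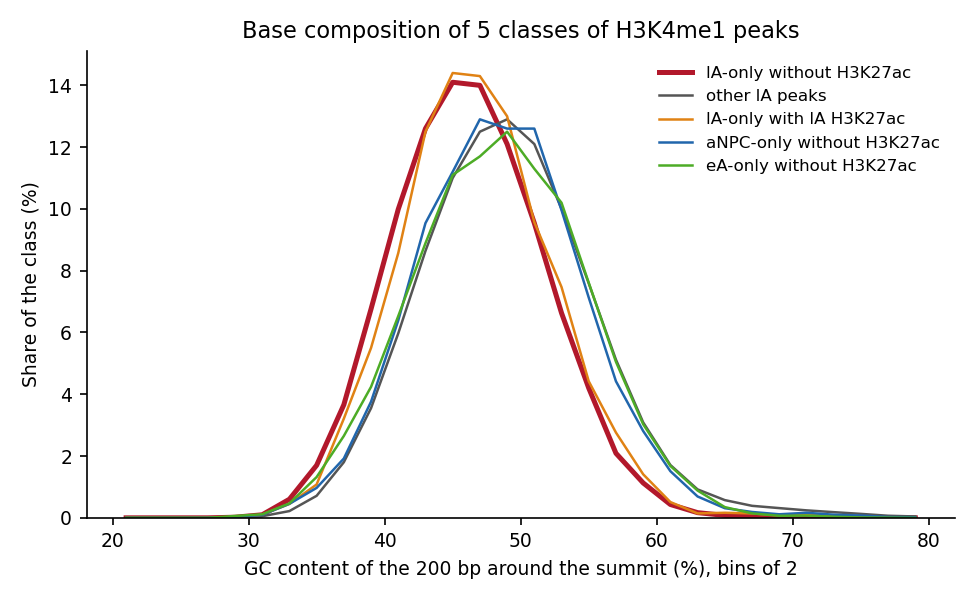
Distribution of the GC content (%) of the 200 bp around the summit, in bins of 2 percentage points, as the share of each of 5 classes of H3K4me1 peaks. Both lA-only classes lie to the left, with means of 46.0% without and 46.6% with H3K27ac, and the aNPC-only, eA-only and other lA peaks have means of 48.3%, 48.2% and 48.9%.

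Transcription factor motifs were counted as exact letters on either strand in the same 200 bp, and each of 13 motifs was compared with 4 classes. Intervals were widened for the 52 comparisons to a level of 99.9%. A match describes the sequence and is not evidence that the factor was bound. Over the whole lA list the matches ranged from 0.0575% of peaks for the palindromic NF1 site to 39.2% for the short SOX letters. In the regions, 10114 windows held none of the 13 and 36.6% held exactly 1.

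The TEAD letters GGAATG were more frequent in the regions than in each class compared. TEAD proteins are the DNA-binding partners of the Hippo pathway effectors YAP and TAZ. The letters were found in 9803 regions (19.4%) against 13.5% of the other lA peaks, a difference of 5.90 points (99.9% Newcombe interval 5.26 to 6.55). Against the aNPC-only peaks (10.5%) the difference was 8.87 points (7.84 to 9.87), and against the eA-only peaks (11.8%) it was 7.51 points (6.49 to 8.51), each with the same sign on 19 of 19 chromosomes. The share was also higher than in the lA-only peaks with H3K27ac (15.6%), by 3.71 points (1.83 to 5.45), on 17 of 19 chromosomes. This last interval reached 0 when every class was limited to peaks over 1 kb from the excluding ones (2.74 points, −0.241 to 5.42). TEAD was the 1 motif of the 13 for which all 4 intervals lay above 0.

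The TEAD share differed little between chromosomes and more between weak and strong regions. By chromosome it ranged from 18.6% to 20.8%, and the range in the other lA peaks, 12.7% to 14.4%, did not overlap it. In regions with a −log10 q under 5 it was 17.5% (95% Wilson interval 17.0 to 18), from 5 to 10 it was 19.8% (19.3 to 20.3) and from 10 to 20 it was 23.3% (22.2 to 24.3). In the 507 regions at 20 or more it was 21.3% (18 to 25.1), an interval that overlaps those of both bins before it. In the other lA peaks it stayed between 12.2% and 13.9% over the same bins. Intergenic regions held the letters in 21.0% of cases, intronic ones in 18% and promoter ones in 17.3%, each above the other lA peaks of the same place (14.2%, 13.3% and 11.5%). Counted by distance, the letters stood at 1.13 matches per kb within 50 bp of the summit and 0.904 per kb from 150 to 200 bp away, against 0.740 and 0.707 per kb in the other lA peaks. Of 11190 matches with their centre within 100 bp of a summit, 99.0% had flanks, over 20 bases, that occurred once in the lA list, and whether the matches lie in diverged repeat copies was not tested.

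The E-box letters CAGCTG, bound by basic helix-loop-helix factors, showed the opposite. They were found in 10.9% of the regions, 14.8% of the other lA peaks (difference −3.96 points, −4.50 to −3.41), 15.2% of the eA-only peaks (−4.31 points, −5.35 to −3.30) and 20.3% of the aNPC-only peaks (−9.42 points, −10.6 to −8.25), with the same sign on 19 of 19 chromosomes in each. In windows of 40% to 50% GC these differences were −2.13, −2.62 and −6.99 points, and their intervals left out 0. The lA-only peaks with H3K27ac held them in 9.43%, and the interval of that difference reached 0 (1.43 points, −0.108 to 2.80).

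The AP-1 letters TGANTCA, read by FOS, JUN and ATF family proteins, gave a different order of the stages. They were found in 7.98% of the regions, which was above the aNPC-only peaks (5.51%, difference 2.47 points, 1.71 to 3.19) and below the eA-only peaks (12.6%, difference −4.59 points, −5.54 to −3.67). Against the other lA peaks (7.87%) the difference was 0.113 points (−0.339 to 0.577), and against the lA-only peaks with H3K27ac (8.30%) it was −0.320 points (−1.77 to 0.958). Among 3 classes made by 1 rule in 3 stages, the eA-only peaks thus had the highest AP-1 share.

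The short NF1 letters TGCCAA, recognised by the NFI factors that promote gliogenesis, was found in 15.4% of the regions. This was below the eA-only (18.1%, difference −2.68 points, −3.81 to −1.58) and aNPC-only peaks (17.1%, difference −1.69 points, −2.86 to −0.560) and above the lA-only peaks with H3K27ac (12.6%, difference 2.83 points, 1.10 to 4.40). The difference from the other lA peaks was −0.995 points (−1.61 to −0.375), and it turned to 0.335 points (−0.387 to 1.08) when only peaks over 1 kb from the excluding ones were kept. The palindromic NF1 site was found in 18 regions, and no interval left out 0 against any class. The call of the short letters against the aNPC-only peaks was lost in 500 bp around the summit (−0.478 points), and that against the acetylated lA-only peaks among peaks with a −log10 q from 5 to 10 (1.86 points).

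The STAT letters TTCNNNGAA, the element through which LIF and other gp130 cytokines act, were found in 7.85% of the regions. The share was above that of the aNPC-only peaks (5.80%, difference 2.05 points, 1.28 to 2.78), the other lA peaks (6.73%, 1.12 points, 0.682 to 1.58) and, narrowly, the eA-only peaks (7.03%, 0.819 points, 0.0356 to 1.56). That last call was lost under several alternatives, among them the removal of a single chromosome (0.745 points, −0.0625 to 1.51). It was not told apart from the lA-only peaks with H3K27ac (8.06%, −0.211 points, −1.64 to 1.05). The RUNX letters TGTGGT, found in 15.4% of the regions, were higher than in the other lA peaks by 0.887 points (0.285 to 1.5), and the other 3 intervals held 0. Within windows of 40% to 50% GC, the intervals of STAT and RUNX against the other lA peaks reached 0 (0.496 and 0.706 points), and that of TEAD did not (6.01 points, 5.19 to 6.84).

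The differences of the remaining motifs varied with the class and with the GC range. The AT-rich LIM homeobox letters TAATTA were higher than in the other lA peaks (4.43% against 3.70%) and than in the lA-only peaks with H3K27ac (2.86%), and in windows of 40% to 50% GC the first difference was −0.141 points with an interval holding 0. SOX and FOX letters were also higher than in the other lA peaks, by 1.67 and 0.362 points, and neither held in the same GC range (−0.603 and 0.0688 points, both intervals with 0). Against the aNPC-only peaks the difference was −2.69 points for the ETS, −0.637 points for the POU and −3.04 points for the SOX letters. POU was 1.18 points higher than in the lA-only peaks with H3K27ac. For C/EBP none of the 4 intervals left out 0. The calls of POU and SOX against the aNPC-only peaks were each lost under at least 1 alternative, POU with a −log10 q of at least 5 (−0.749 points) and SOX in 500 bp around the summit (−1.20 points, against −5.27 points, −7.29 to −3.26, in windows of 40% to 50% GC), and that of POU against the acetylated lA-only peaks was lost with peaks 1 kb apart (1.19 points).

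**Figure D4:**
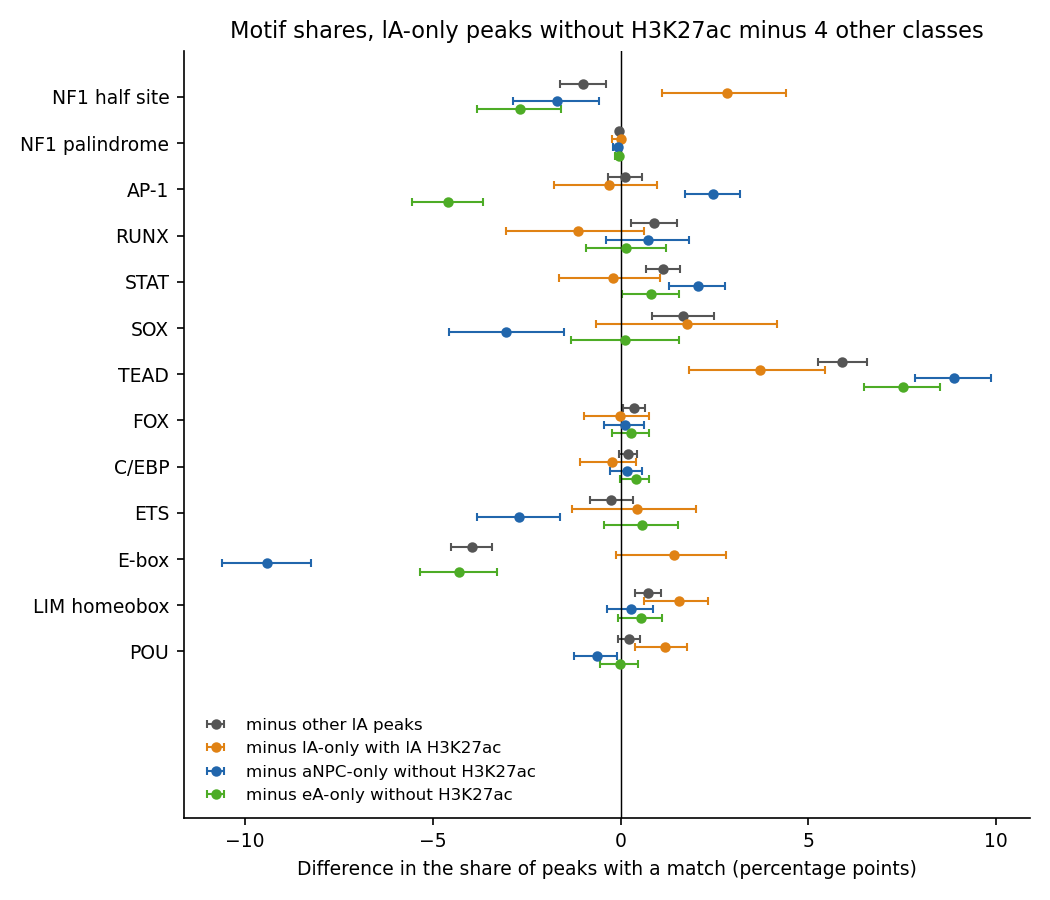
Difference in the share of peaks with a motif match (percentage points), regions minus each of 4 other classes of H3K4me1 peaks, for 13 motifs. Points are differences and bars 99.9% Newcombe intervals over peaks. TEAD lies right of 0 against all 4 classes, from 3.71 to 8.87 points, and the E-box lies left of 0 against 3 of them.

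Because the regions were so many, most genes had one nearby, and a region near a gene says little by itself. Of 21418 coding genes on chromosomes 1 to 19, 16240 (75.8%) had at least 1 region in the gene or within 50 kb of it, with a median of 2.00 regions and 1.70 regions per 100 kb (quartiles 0.556 and 2.99). The median share of a gene's lA H3K4me1 peaks that belonged to the class was 17.3%. This share went with gene length: the median was 14.3% for genes under 10 kb, 23.5% for genes of 100 to 300 kb and 28.6% for the 505 genes of 300 kb or more. When each region was given to the gene of the nearest start site, at most 50 kb away or with the region inside the gene, 33989 regions (67.1%) found a gene and 10122 genes (47.3%) received one. The 594 genes that received 10 or more had a median length of 295 kb, against 15.5 kb for all genes.

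The genes with the most regions were among the longest. Csmd1, which encodes a complement-regulating membrane protein of neural tissue, received 79, and 64.0% of the 125 lA peaks in and around it were in the class. Rbms3, an RNA-binding protein gene, received 71, Ptprg 66 and Fhit, a tumour suppressor gene at a fragile site, 60. Rora, which encodes a nuclear receptor needed for cerebellar development, received 55. Lphn3 (an adhesion receptor) and Pde4d (a cAMP phosphodiesterase) received 45 each. Gpc6 (a glypican that astrocytes secrete to promote synapses) and Npas3 (a transcription factor) received 43 each, and Ctnnd2, which encodes δ-catenin, received 42. The 10 genes were from 689 to 1643 kb long.

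Counted per length, the leading genes were different and mostly small. Of the 10 genes with the most regions per 100 kb among those with at least 5, Bmp6, the gene of a bone morphogenetic protein ligand, was the longest, at 155 kb. It had 30 regions at 11.8 per 100 kb, and these were 57.7% of its 52 lA peaks. The other 9 were Gm2178 (14.0 per 100 kb), Rpl15-ps2 (12.9), Tceb1 (12.3), Gm6096 (11.9), C530025M09Rik (11.9), Gm9781 (11.7), Myoz2 (10.9), Kctd7 (10.8) and Adm (10.8). Tceb1 encodes elongin C, Myoz2 a sarcomere protein and Adm the vasodilator peptide adrenomedullin. The genes without a stated role carry predicted or systematic names or have a role not described here. At Bmp6, 23 of the 30 regions lay inside the gene, whereas at the other 9 at most 3 did, and regions in the 50 kb on each side may belong to a neighbour.

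Genes of 10 lists were then described by how many had a region and by the share of their lA H3K4me1 peaks that were in the class. The astrocyte list (identity and function) had a region at 30 of 32 genes, against the 75.8% of all genes, and by the nearest start site at 23 of 32 (71.9%), against 47.3%. Its genes had a median of 2.62 regions per 100 kb and a median share of 14.8%, below the 17.3% of all genes. Nfia, the nuclear factor that drives gliogenesis, had 31 regions among 134 lA peaks, and its relative Nfib had 19 among 110. Slc4a4, the sodium bicarbonate cotransporter of astrocytes, had 26 among 68, and the glutamate transporter gene Slc1a2 had 9 among 41. Glul and Id3 had none. At Gfap, the astrocyte intermediate filament gene, 2 of 17 lA peaks were in the class.

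Reactive astrocyte and inflammation genes had a region at 29 of 31 (93.5%, against 75.8% of all genes) and by the nearest start site at 24 (77.4%, against 47.3%), with a median of 3.07 per 100 kb and a median share of 19.2%. The highest counts were 15 of 35 lA peaks at Il1r1, the interleukin 1 receptor gene, 9 of 19 at the adhesion molecule gene Vcam1, 8 of 19 at Cp (ceruloplasmin) and 8 of 31 at Nfkb1, a subunit of NF-κB. Tlr4 and Tnfaip3 also had 8, of 17 and 20. Lcn2 and Cd14 had none. In the gp130, JAK and STAT pathway, through which the LIF of the medium acts, 28 of 30 genes (93.3%, against 75.8%) had a region and 25 (83.3%, against 47.3%) were given one by the nearest start site, the median was 2.10 per 100 kb and the median share 15.3%. The highest counts were at Pias1, an inhibitor of STAT signalling (9 of 28), Il6st, the gp130 receptor itself (7 of 19, all outside its body), and Clcf1 and Cntfr, a ligand and a receptor of the pathway (6 of 27 and 6 of 26), with the same count at Ptpn11 (6 of 23). Stat3 had 5 of 32.

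The BMP and TGF-beta pathway had the highest median density of the 10 lists, 3.27 regions per 100 kb, with a region at 29 of 31 genes (93.5%, against 75.8%), or 25 by the nearest start site (80.6%, against 47.3%), and a median share of 24.3%. Its ligand gene Bmp6 had 30 regions, the receptor genes Bmpr1b and Bmpr1a had 19 of 56 and 15 of 41, and the inhibitory Smad6 had 13 of 36. Smad3, which transmits TGF-beta signals, had 9 of 48, and Inhba had none of 6. The genes of this list had a median length of 61.1 kb, and genes of 50 to 100 kb had a median share of 20.5%. Extracellular matrix genes, with a median length of 64.4 kb, had a region at 30 of 33 (90.9%, against 75.8%), or 28 by the nearest start site (84.8%, against 47.3%), and a median share of 21.4%. Their highest counts were at Col8a1 (13 of 34), Lama2 (13 of 48), Col4a1 (12 of 34) and Col4a2 (12 of 47), genes of collagens and a laminin. Col4a1 and Col4a2 lie side by side, so the same region can count at both.

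The genes of the factors whose motifs were searched all had regions, 26 of 26 (against 75.8%), or 20 by the nearest start site (76.9%, against 47.3%), with a median share of 15.5%. Beside Nfia and Nfib, the highest counts were at Runx2, a RUNX factor (25 of 65), and Tead1 (16 of 82). Tead4 had 7 of 27 and Atf3, an AP-1 family member induced by stress, 7 of 19. Fos and Jun had 2 each, of 23 and 17.

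Genes of other lineages were included for contrast. Synapse and excitability genes of neurons had a region at 29 of 29 (against 75.8%), or 27 by the nearest start site (93.1%, against 47.3%), and 522 of their 1584 lA peaks (33.0%) were in the class, the highest of the 10 lists, with a median share of 34.2%. Their median length was 444 kb, and all genes of 300 kb or more had a median share of 28.6%. High counts were found at Erc2, of the active zone (36 of 142), the calcium channel subunit gene Cacna2d1 (32 of 69) and Cntnap2 (31 of 61). Proneural and neuronal transcription factors had a region at 20 of 24 (83.3%, against 75.8%), or 16 by the nearest start site (66.7%, against 47.3%), and a median share of 14.5%. There were 10 of 75 at Myt1l, 6 of 11 at Tbr1 and 4 of 8 at each of Dlx5 and Dlx6. Dlx5 and Dlx6 are neighbours whose 50 kb flanks overlap, so the same region can count at both. Oligodendrocyte genes had a region at 14 of 16 (87.5%, against 75.8%), or 8 of 16 by the nearest start site (near the 47.3% of all genes), and a median share of 12.9%. Enpp6 had 9 of 24 and the myelin gene Mobp 8 of 13, and 5 genes had 3 each, among them Mbp (3 of 26) and Opalin (3 of 14). Constitutively used genes had a region at 17 of 20 (85.0%, against 75.8%), or 8 of 20 by the nearest start site (against 47.3%), and the lowest median share, 9.55%. There were 5 of 18 at Reep5 and 4 of 18 at Ppia, and 4 genes had 3 each, among them Polr2a (3 of 23) and Snrpd3 (3 of 20). No list was tested against other genes, and the part of gene length in these shares was not tested.

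**Figure D5:**
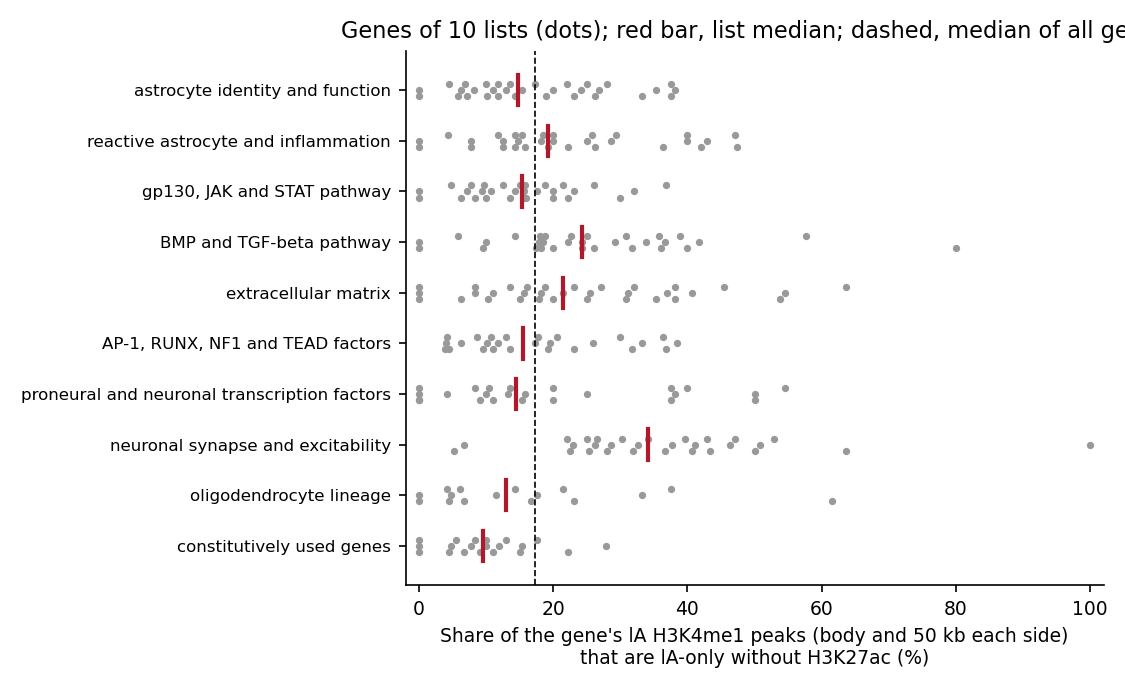
Share of the lA H3K4me1 peaks in the gene and 50 kb on each side (%) that were lA-only without H3K27ac, for each gene (grey dots) of 10 lists. Red bars are list medians and the dashed line is the median of all coding genes on chromosomes 1 to 19, 17.3%. The synapse list sits highest, with a median of 34.2%, and the constitutively used genes lowest, at 9.55%.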

How the data were processed

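H3K4me1 and H3K27ac were measured by ChIP-seq in aNPC, eA and lA, with 2 replicates each (12 of the 51 samples). For 8 RNA-seq libraries the labels give no clear group, and all samples outside these 6 lists were not used here. The authors aligned reads uniquely to mm9 with Bowtie, merged the replicates with SAMtools 0.1.19 (the version in the submitters' processing notes) and called peaks with MACS2 at default parameters without input. The deposited score is a whole number derived from the q-value. The deposited fold is the enrichment at the summit over the local background. The deposited −log10 column used here belongs to the q-value of the summit. Fold and −log10 q were not compared between lists, whose depth is unknown.

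Peaks were compared by an overlap of 1 bp or more. Coding genes and 43969 coding start sites came from GENCODE release M1 on mm9, and sequence from the mm9 genome. Shares carry 95% Wilson intervals, differences of shares Newcombe intervals, and differences of mean GC content normal intervals. A difference was called past the threshold where its interval left out 0. For motifs the level was adjusted by Bonferroni over 52 comparisons. No p-value is given, because each stage has 1 merged list and peaks are not replicates. The regions, motifs and gene lists were chosen with earlier results of these data known.

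Named in the text were the 10 regions with the highest −log10 q, the 10 genes given the most regions, the 10 genes with the most regions per 100 kb (of those with at least 5), the 4 genes with the most regions in each list, the 5 windows of 100 kb with the most regions, and for each printed motif the region of highest −log10 q, off chromosome 18. Some items that this rule names are not reported here. Genes named beyond these, such as Gfap, Stat3, Tead4 or Atf3, were picked after their values were seen. Alternatives were other gaps, −log10 q limits, windows, promoter definitions, GC ranges and each chromosome left out. Scripts used matplotlib 3.10.9, pysam 0.24.0, SciPy 1.17.1, NumPy 2.4.6 and Python 3.11.15 and were tested on simulated data.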

Additional observations from a re-analysis of the deposited data

How the results depend on the processing

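No paired analysis was possible because the replicates of each stage and mark were merged before peaks were called, and for the same reason no replicate could be left out. All 4 differences in promoter share and all 4 in mean GC content kept their direction and an interval without 0 under every alternative run, including each chromosome left out in turn. The number of regions moved with the limits: 33301 with no excluding peak within 1 kb, 30889 with a −log10 q of at least 5, 6836 with at least 10, 29912 with equally long H3K4me1 lists, and 61599 when only a summit inside an excluding peak removed a region. The number of motifs higher than in the other lA peaks was 6, and it was 1 (TEAD) in windows of 40% to 50% GC and 3 with a −log10 q from 5 to 10, an alternative chosen after seeing the data. The number lower was 2, and 1 with peaks 1 kb apart. Against the lA-only peaks with H3K27ac, 4 motifs were higher, and 2 with peaks 1 kb apart. Against the aNPC-only peaks, 5 were lower, and 3 in 500 bp. Against the eA-only peaks, 2 were higher, and 1 with a −log10 q of at least 5, 1 from 5 to 10, 1 in windows of 40% to 50% GC and 4 in 500 bp. Motif differences changed sign in 29 values, in 25 of which neither interval left out 0 (AP-1 against the other lA peaks, for example). The other 4 were those of the short NF1 site against the other lA peaks with peaks 1 kb apart (0.335 points), and, in windows of 40% to 50% GC, SOX against the other lA peaks (−0.603 points) and the eA-only peaks (−2.23 points) and LIM homeobox against the other lA peaks (−0.141 points). Of the other motif comparisons under alternatives, 329 kept their call, 20 lost it and 11 gained one. By the nearest start site, 8 oligodendrocyte and 8 constitutively used genes had a region. Within 50 kb, 58.2% of the regions had an aNPC-specific, 49.3% an eA-specific and 66.2% an lA-specific H3K27ac peak. The cause of these changes was not tested. The unknown depth of each list limits all counts of absent peaks.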
